A study of Mus musculus with 16 samples.

Results

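The regions described here are 629 stretches of open chromatin that had a peak in both groups carrying Runx1-het and in none of the other 6 groups of the study. They were 629 of 118981 union regions on chromosomes 1 to 19 (0.529%), where a union region is the span of all peaks, over the 8 deposited peak lists, that overlap by at least 1 bp, and 0.954% of the 65940 union regions with a peak in both groups. Members were thus chosen by which lists hold a peak. Open chromatin was mapped by ATAC-seq, an assay that lets the Tn5 transposase cut accessible DNA and tag the ends for sequencing, in haematopoietic progenitors labelled as multipotent progenitors (MPP) from mice 21 days old. The 16 samples made 8 groups of 2, in 2 sets that the sample titles tell apart, and the labels do not say how the sets differ. The first set held Runx1-het, Flt3-ITD/Runx1-het, Flt3-ITD and wildtype mice, and the second held NUP98-HOXD13, NUP98-HOXD13/Flt3-ITD, Flt3-ITD and wildtype mice. The labels give neither strain nor sex, nor the kind of Runx1 allele, the promoter of NUP98-HOXD13 or whether animals were pooled.

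Runx1 encodes the DNA-binding subunit of core-binding factor, which pairs with Cbfb and is needed for the first blood stem cells and later for lymphoid, myeloid and megakaryocytic differentiation. Runx1-het is taken here, as the name states, as a heterozygous Runx1 genotype. Flt3-ITD is an internal tandem duplication in Flt3, a receptor tyrosine kinase of early progenitors, which keeps the receptor signalling without its ligand. NUP98-HOXD13 is a leukaemia fusion of a nuclear pore gene with a HOX gene. Open regions away from gene starts are often enhancers, the elements through which RUNX, ETS, GATA and interferon regulatory factors act on their target genes.

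Each group had 1 peak list made from both of its samples, so no value has a replicate error, no difference between genotypes could be tested, and read depth is unknown. Since the regions were selected on their peak calls, the peak values of those lists are a description. The values are the authors' own for each peak. Percentiles were taken within a list, while the leading regions were ordered by the lower value over both Runx1-het lists. In bulk samples of this kind, fewer cells of a type and less open chromatin per cell cannot be told apart. The starts of Kit, Cd34, Flt3, Ptprc, Runx1, Gata2, Mpo and Epor lay within 1 kb of a region in 8 of 8 lists and that of Itga2b in 7, while Cd3e, a T-cell gene, had none in any list. The lists held 55884 to 86091 union regions each, and the shortest was that of Flt3-ITD in the second set.

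Of the 629 regions, 11 overlapped a RefSeq promoter window, which runs from 250 bases before to 50 bases after a gene's start. The windows belonged to Ifit3, Tmem181a, Hk3, Galnt15, 2310030G06Rik, Frem1, Atp2b2, Trem2, Henmt1, Wnt6 and Thrsp. The 4 printed here lay wholly inside their region and, among such windows, had the highest lower value of −log10 p over the 2 lists. No list other than the Runx1-het pair had a peak in them. Peaks of both lists together covered 300 of the 300 bases at Trem2, 272 at Galnt15 and 268 at Hk3. At Ifit3 they covered the 163 bases at the 5′ end, since the Runx1-het peak spanned the whole window and the Flt3-ITD/Runx1-het peak did not. All are RefSeq sequences of build GRCm38.p6, written 5′ to 3′ on the gene's strand, with capitals marking matches to any of 8 short motifs. The Ifit3 window is chr19:34583279-34583578 (plus strand), that of Hk3 is chr13:55021336-55021635 (minus strand), that of Galnt15 is chr14:32028853-32029152 (plus strand) and that of Trem2 is chr17:48346151-48346450 (plus strand).
Ifit3: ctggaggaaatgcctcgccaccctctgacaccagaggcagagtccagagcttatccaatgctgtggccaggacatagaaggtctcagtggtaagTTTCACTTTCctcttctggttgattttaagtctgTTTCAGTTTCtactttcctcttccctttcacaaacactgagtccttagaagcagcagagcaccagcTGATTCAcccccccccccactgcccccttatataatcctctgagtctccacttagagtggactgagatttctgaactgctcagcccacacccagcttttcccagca
Hk3: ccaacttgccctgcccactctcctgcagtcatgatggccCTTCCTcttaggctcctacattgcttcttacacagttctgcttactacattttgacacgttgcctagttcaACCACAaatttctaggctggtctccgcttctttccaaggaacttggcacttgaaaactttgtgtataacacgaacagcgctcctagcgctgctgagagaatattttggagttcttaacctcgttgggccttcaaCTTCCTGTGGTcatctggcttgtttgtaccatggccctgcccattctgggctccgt
Galnt15: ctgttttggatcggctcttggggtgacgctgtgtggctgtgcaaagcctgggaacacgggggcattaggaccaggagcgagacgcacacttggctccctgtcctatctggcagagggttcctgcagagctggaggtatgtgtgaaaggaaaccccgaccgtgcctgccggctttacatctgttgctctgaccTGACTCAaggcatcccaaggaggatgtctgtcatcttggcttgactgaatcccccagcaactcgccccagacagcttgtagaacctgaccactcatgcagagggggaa
Trem2: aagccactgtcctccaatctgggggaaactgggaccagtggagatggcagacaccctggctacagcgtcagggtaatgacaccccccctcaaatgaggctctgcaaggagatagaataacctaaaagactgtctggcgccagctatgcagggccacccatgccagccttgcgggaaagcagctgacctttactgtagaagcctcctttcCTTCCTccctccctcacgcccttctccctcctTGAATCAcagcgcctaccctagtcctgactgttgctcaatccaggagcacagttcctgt

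Ifit3 encodes an antiviral protein of the interferon response, and its window held 2 matches to the IRF motif (GAAA, any 2 bases, GAAA), at bases 95 and 129 counted from its 5′ end, and 1 to the AP-1 motif TGANTCA at base 195, which lies outside the part covered in both lists. Hk3 encodes a hexokinase of myeloid cells, and its window held the RUNX motif TGTGGT at bases 111 and 250 and the ETS motif AGGAAG at bases 40 and 245, the later pair sharing 1 base. Galnt15, a glycosyltransferase gene, had AP-1 at base 193. Trem2, a receptor gene of macrophages and microglia, had ETS at base 210 and AP-1 at base 242.

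Over the 11 windows, searched on both strands, RUNX was present in 2 (Hk3 and Frem1), IRF in 1, AP-1 in 3 and ETS in 5. The same motifs were present in 14.8%, 3.38%, 7.06% and 33.8% of the 20084 promoter windows in the RefSeq table. The GATA motif AGATAA was in 1 of the 11 windows and in 9.57% of all, the C/EBP motif TTGCNNCAA in 1 and in 1.76%, the CTCF motif (CC, any 3 bases, AGG, any base, GGC) in 1 and in 4.22%, and the STAT motif TTCNNNGAA in 0 and in 7.78%. GC content ran from 46.3% in Frem1 to 76.7% in Wnt6, and the median of all windows was 57.0%. A match is a string of letters and not a bound site, and 11 windows are too few to set a share against the table. None of the 629 regions overlapped a RefSeq miRNA hairpin, a count given without a share over all union regions.

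The pair of Runx1-het lists did not stand at the top of the 28 possible pairs of lists. Its 629 regions compare with a lowest count of 45, a median of 340 and a highest of 1118 over the pairs, with 5 pairs above it and 22 below. NUP98-HOXD13 and NUP98-HOXD13/Flt3-ITD shared 1118 regions that no other list held (0.94% of union regions), and the first-set Flt3-ITD/Runx1-het and Flt3-ITD lists shared 1049 (0.882%). Runx1-het shared 1043 with the wildtype list of the second set, the longest list of the study, with which it has no mutation in common. The reverse pattern, regions missing only from both Runx1-het lists, had 89 regions. A further 2990 regions were in the Runx1-het list alone and 4094 in the Flt3-ITD/Runx1-het list alone.

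**Figure D1:**
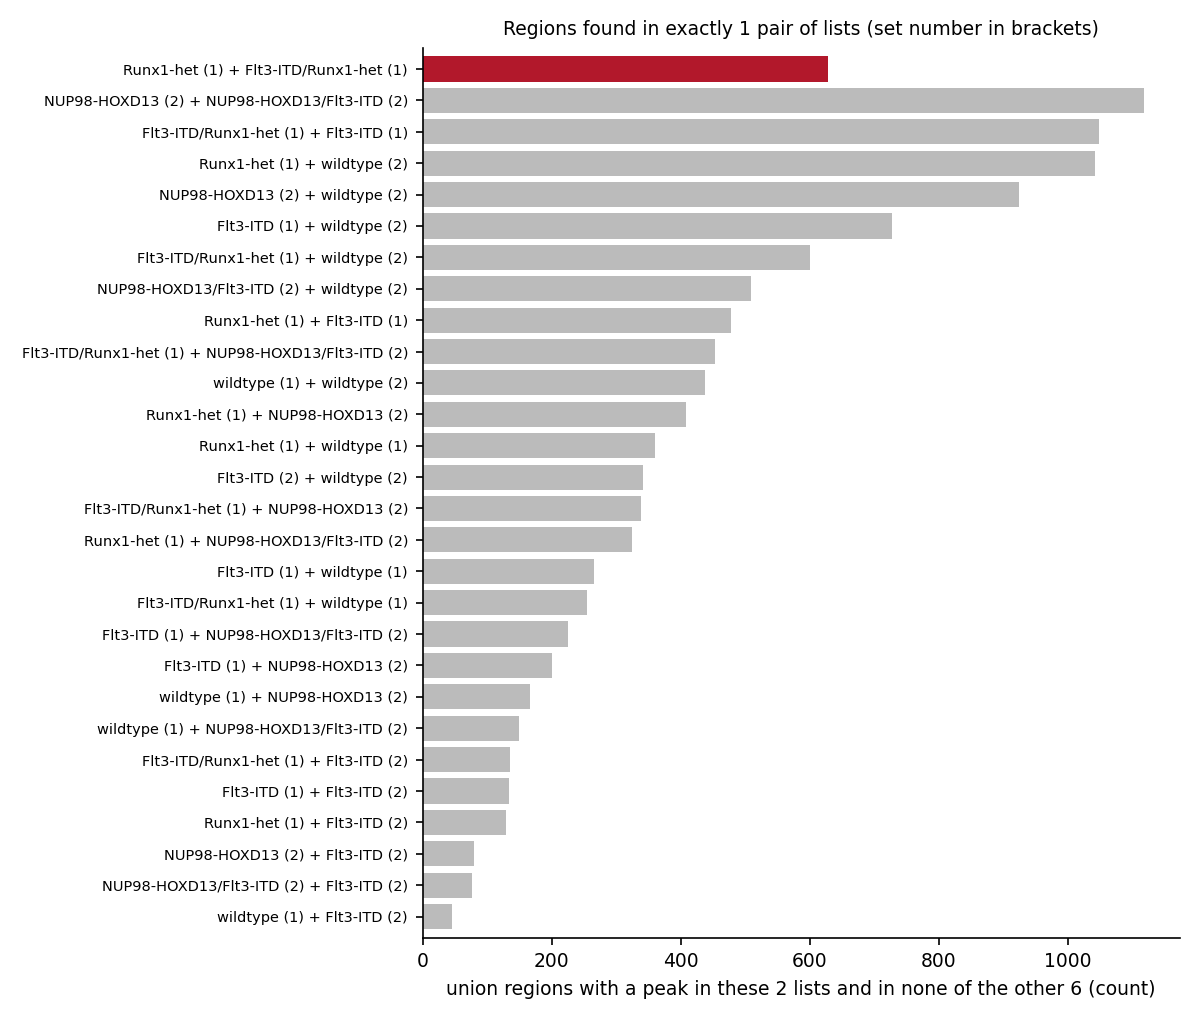
Horizontal bars give the number of union regions with a peak in exactly the 2 lists named at the left and in none of the other 6, for all 28 pairs of lists, with the set in brackets. The red bar of the Runx1-het pair stands at 629, and 5 of the grey bars are longer.

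Most of what set the Runx1-het lists apart inside their own set was open elsewhere in the study. Ignoring the second set, 2836 regions were in both Runx1-het lists and in neither the Flt3-ITD nor the wildtype list of the first set. Of these, 1510 (53.2%) had a peak in the second-set wildtype list, 522 (18.4%) in the Flt3-ITD list of that set, 1268 (44.7%) in the list of NUP98-HOXD13 alone and 1204 (42.5%) in that of NUP98-HOXD13/Flt3-ITD. The remaining 629 (22.2%) had none. Within the first set, the same count was 3310 for Flt3-ITD/Runx1-het with Flt3-ITD, 2693 for Runx1-het with Flt3-ITD and 2124 for Runx1-het with wildtype, so the pair that shares Runx1-het was second of these.

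The 629 regions were weak peaks in both lists that held them. In the Runx1-het list, −log10 p ran from 4.67 to 56.5 with a median of 14.3, against a median of 49.9 over the whole list. In the Flt3-ITD/Runx1-het list it ran from 3.86 to 60.6 with a median of 15.7, against 50.3. The fold enrichment of a peak over its background, a ratio, had a median of 4.94 in Runx1-het against 9.73 for the whole list, and of 5.92 in Flt3-ITD/Runx1-het against 10.9. By rank within its list, 569 regions (90.5%) were in the lowest 25% of Runx1-het and 536 (85.2%) in the lowest 25% of Flt3-ITD/Runx1-het. None was in the top 25% of either list. Absence from the other 6 lists is a missing call, not a measured loss of signal.

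Only 2 regions ranked in the upper 50% of the Runx1-het list, at Dapk2 and at chr11:25272474-25273060, which has no gene within 100 kb and a −log10 p of 56.5 in Runx1-het and 9.54 in Flt3-ITD/Runx1-het. In the Flt3-ITD/Runx1-het list there were 4, nearest to Dapk2, Hivep2, Cd93 and Cdyl, the last of them beyond 100 kb from its gene. These were named for their rank after the values were seen. The regions held only by Flt3-ITD/Runx1-het and Flt3-ITD of the first set were also low, with median percentiles of 17.8 and 11.4 and with 2 and 0 regions in the top 25%. Those held only by NUP98-HOXD13/Flt3-ITD and NUP98-HOXD13 had medians of 17.3 and 19.9 and 10 and 16 regions in the top 25%. The median percentiles of the Runx1-het pair were 9.62 in Runx1-het and 10.4 in Flt3-ITD/Runx1-het.

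**Figure D2:**
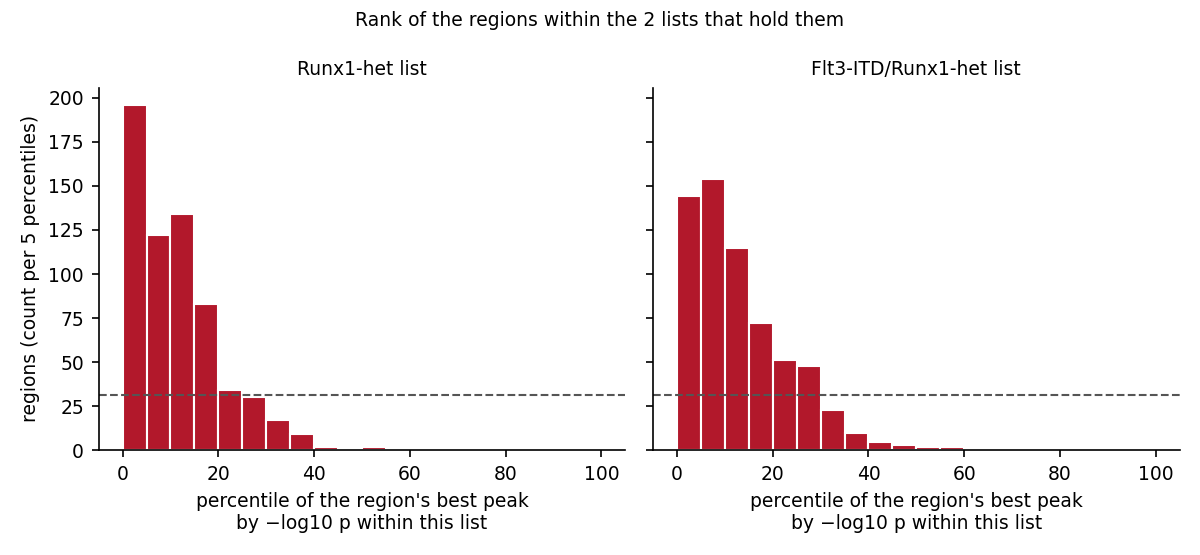
Histograms count the 629 regions by the percentile of their best peak within the Runx1-het list (left) and the Flt3-ITD/Runx1-het list (right), ranked by −log10 p in steps of 5 percentiles, and the dashed line is the level of an even spread. The counts pile up at the left of both panels, with medians of 9.62 and 10.4, and none lies in the top 25%.

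The peaks of the 2 lists lay close together in the regions but were ranked loosely. The closeness is partly built in, since the rule joined overlapping peaks and the regions were narrow. The summits of the best peaks were a median of 14 bp apart, and 561 regions (89.2%) had them within 50 bp, against 93.0% of the 65940 regions with a peak in both lists. The largest gap was 613 bp. The part covered by peaks of both lists was a median of 80.2% of the region and under 50% in 42 regions. The rank correlation of −log10 p across regions was 0.21 over the 629 and 0.896 over all 65940, given as a description, since regions of a list share its libraries and the 629 span a narrow range of values. In 345 regions the percentile was higher in Flt3-ITD/Runx1-het and in 284 it was higher in Runx1-het. The deposited values also repeated, with 285 different −log10 p values in Runx1-het and 324 in Flt3-ITD/Runx1-het over the 629 regions.

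The leading regions are given by the lower of their 2 −log10 p values, among those with a protein-coding gene within 100 kb. The highest lay inside Dapk2 (chr9:66202217-66202940), a calcium/calmodulin-dependent kinase of the death-associated protein kinase family. Its −log10 p was 55.4 in Runx1-het and 60.6 in Flt3-ITD/Runx1-het, its fold enrichment 12.9 and 15.0, and its percentiles 53.4 and 56.5. It was at mid-rank in both lists and absent from the other 6, whose nearest peak was 10508 bp away. Dapk2 was the nearest gene of 14 union regions, of which 3 were open in all 8 lists. Runx1-het held 8 of these regions and Flt3-ITD/Runx1-het 10, against 6 in Flt3-ITD and 3 in wildtype of the first set, and, in the second set, 9 in NUP98-HOXD13, 8 in its double mutant with Flt3-ITD, 5 in Flt3-ITD and 7 in wildtype.

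Next came Myo1e, a class I myosin, with a region at chr9:70381973-70382463 and −log10 p of 36.4 in Runx1-het and 39.5 in Flt3-ITD/Runx1-het. Ifit3 was the third, with 33.7 and 32.3. Regions inside Abca4, a lipid transporter of the retina (30.6 and 32.3), Msrb3, a methionine sulfoxide reductase (29.5 and 31.2), Gpr132, a G protein-coupled receptor of leukocytes (29.3 and 32.0), and Smurf2, a ubiquitin ligase of TGF-β signalling (29.3 and 34.0), followed in that order of groups. All 7 of these regions, Dapk2 included, overlapped the span of their gene, and that of Ifit3 began before the span. Without the limit of 100 kb, 3 regions far from any gene would rank among the leading 12, nearest to Cdyl (29.5 in Runx1-het and 52.8 in Flt3-ITD/Runx1-het, 278664 bp away), Mn1 (29.5 and 35.7, 385097 bp) and Rbms1 (29.5 and 27.8, 145538 bp).

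The other 5 of the 12 leading regions within 100 kb of a gene were at Nme8, Tnik, Cxcl12, Med24 and Cd93. Med24, a Mediator subunit, held its region inside the gene, with −log10 p of 25.5 in Runx1-het and 27.8 in Flt3-ITD/Runx1-het. Nme8 (27.5 and 32.3) lay 956 bp from its region, Tnik, a kinase linked to Wnt signalling, 16862 bp (26.5 and 25.7), and Cxcl12, the chemokine that holds stem cells in the marrow, 22816 bp (30.6 and 25.7). Cd93, a surface receptor of early progenitors and endothelium, was 34693 bp from chr2:148478228-148478741, with 25.5 in Runx1-het and 55.3 in Flt3-ITD/Runx1-het, the widest gap of the 12. A further member lay nearest to Cd93 at chr2:148454177-148454498, with 15.3 and 12.1. The nearest gene is a label of position, and no file used here ties a region to a gene's expression.

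**Figure D3:**
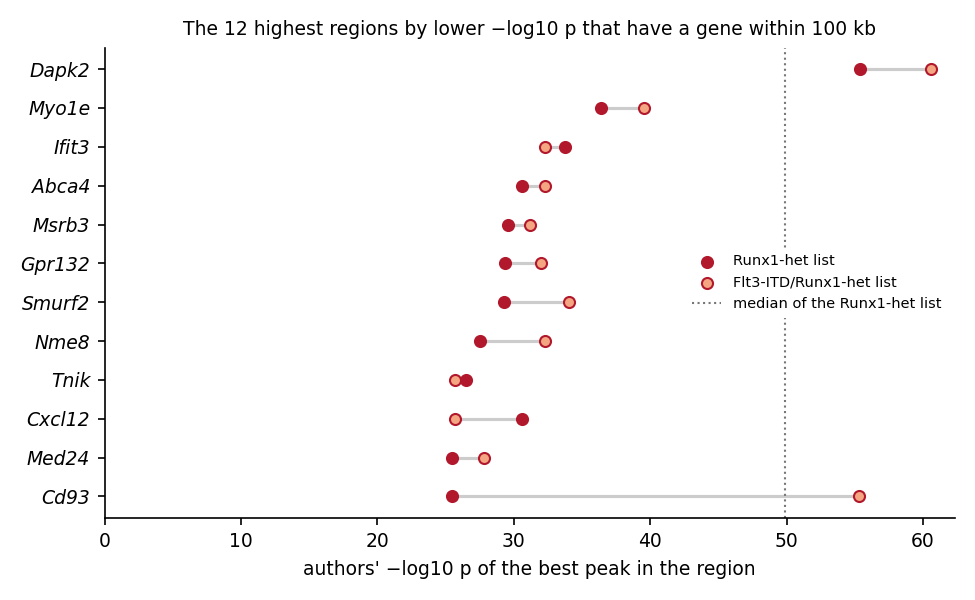
Points give the authors' −log10 p of the best peak in the Runx1-het list (dark red) and the Flt3-ITD/Runx1-het list (orange) for the 12 regions with the highest lower value among those with a protein-coding gene within 100 kb, named by that gene, and the dotted line is the median of the whole Runx1-het list. Dapk2 lies above that median in both lists, and Cd93 in Flt3-ITD/Runx1-het only. The median of the whole Flt3-ITD/Runx1-het list, 50.3, is not drawn.

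Hivep2, a zinc-finger gene, also had 2 regions. The one at chr10:13946515-13947197, 14412 bp from the gene, had −log10 p of 23.5 in Runx1-het and 59.2 in Flt3-ITD/Runx1-het, and its fold enrichment of 15.4 was the highest of the 629 in Flt3-ITD/Runx1-het. The other, chr10:14179246-14179677, had 13.6 and 15.7. Among the 575 regions with a protein-coding gene within 100 kb, 551 genes were named, 24 of them by 2 regions and none by 3 or more. Regions rarely stood together, with 4 of 629 (0.636%) within 10 kb of another. These were a pair 293 bp apart in Dock1, a guanine exchange factor of Rac, with 38.8 and 29.3 in Runx1-het and 15.2 and 14.0 in Flt3-ITD/Runx1-het, and a pair 6459 bp apart in Bicd2. The median distance to the nearest other region of the 629 was 816040 bp.

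The regions were narrow. Their median width was 377 bp (lowest 178, highest 1143), against 437 bp for the regions held only by Flt3-ITD/Runx1-het and Flt3-ITD, 531 bp for the NUP98-HOXD13 pair, 416 bp for the 11604 regions in exactly 2 lists and 591 bp for all union regions. A union region grows with the number of lists that add peaks to it, so the last of these values is not a like comparison. Only 4 of the 629 (0.636%) reached 1 kb, nearest to Spdye4c (1143 bp), Snrpf (1133 bp), Galnt15 (1078 bp) and Cog5 (1001 bp), and Lsp1, a leukocyte protein, came next at 986 bp. In the Spdye4c region the peaks of both lists overlapped over 23.2% of the width, with −log10 p of 12 in Runx1-het and 31.7 in Flt3-ITD/Runx1-het. The Galnt15 region took in the promoter printed above, with 16.2 and 22.5, and a further member lay 22572 bp from the gene (27.5 and 23.6). Galnt15 was the nearest gene of 6 and 7 regions in Runx1-het and in Flt3-ITD/Runx1-het, against 5 in Flt3-ITD and 1 in wildtype of the first set, and 6 in NUP98-HOXD13, 6 in its double mutant with Flt3-ITD, 2 in Flt3-ITD and 4 in wildtype of the second, so both NUP98-HOXD13 lists held as many as Runx1-het.

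By position, 335 of the 629 regions (53.3%, Wilson 95% interval 49.4 to 57.1) overlapped the span of a protein-coding gene. Another 28 (4.45%) lay within 2 kb of one, 212 (33.7%) at 2 to 100 kb and 54 (8.59%, 6.64 to 11) beyond 100 kb. All union regions gave 57.5%, 3.51%, 29.5% and 9.46% in the same classes. Few of the regions were at gene starts. A RefSeq start lay within 1 kb of 23 of the 608 regions off chromosome 18 (3.78%, 2.53 to 5.61), against 11.7% of all union regions and 3.6% of regions in exactly 2 lists. The low share at starts was thus near that of regions found in any 2 lists. The intervals cover counting error only. Of regions outside genes, the median distance to one was 22189 bp, against 26651 bp over all union regions and 31800 bp for regions in exactly 2 lists.

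**Figure D4:**
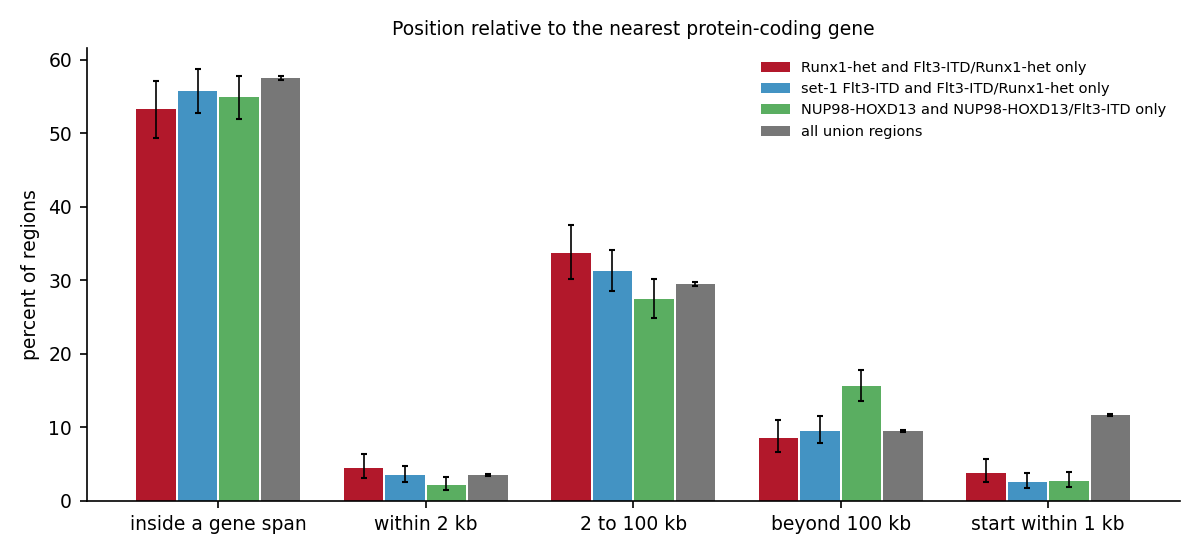
Bars give the percent of regions in each position class relative to protein-coding genes, with Wilson 95% intervals, for the 629 regions (red), the first-set Flt3-ITD pair (blue), the NUP98-HOXD13 pair (green) and all union regions (grey). The start class, which leaves out chromosome 18 and overlaps the other classes, stands at 3.78% for the 629 and 11.7% for all union regions.

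The 5 strongest of the 23 regions at starts were those of Ifit3, D3Ertd751e, Tmem181a, Hk3 and Ptf1a. Hk3 (chr13:55021082-55021716) had −log10 p of 18.2 in Runx1-het and 16.8 in Flt3-ITD/Runx1-het, and a region open in all 8 lists began 635 bp away. Tmem181a, a transmembrane protein gene, had 17.1 and 21.5 with a region open in all 8 lists 680 bp away, and D3Ertd751e had 23.1 and 18.4 with one 579 bp away. Ptf1a, a pancreatic transcription factor gene, had 18 and 16.3. Trem2 (chr17:48346134-48346549) had 10.6 and 20.2.

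Ifit3 was the only gene of the interferon response list with one of the 629 regions, 1 of 141 regions near its genes (0.709%). Its region, chr19:34583036-34583600, had fold enrichments of 9.30 in Runx1-het and 10.2 in Flt3-ITD/Runx1-het. It was the only union region of the series nearest to Ifit3. The Runx1-het peak covered the start used for the promoter window, and the Flt3-ITD/Runx1-het peak ended before that start. The RefSeq span of the gene begins earlier, at 34583119, and the Flt3-ITD/Runx1-het peak overlapped that span. The closest peak of another list, in a region open in all 8, was 12405 bp away. Of 27 interferon genes with a start in the table, 23 had a region within 1 kb in all 8 lists, among them the related Ifit1 and Ifit2. The other 4 were Ifit3, Oas1a (first-set Flt3-ITD and NUP98-HOXD13/Flt3-ITD only), Isg15 (6 lists, Runx1-het and Flt3-ITD/Runx1-het among them) and Oas3 (7 lists, both of them again). Mice have a closely related copy, Ifit3b, and the sources used here do not give how reads that match both were treated, so presence or absence at Ifit3 is uncertain.

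Among genes of blood stem cells, 4 of the 344 regions near list genes belonged to the 629 (1.16%). They lay inside Lmo2 (chr2:103958196-103958555), a bridging factor of stem cell transcription complexes, with −log10 p of 16.8 in Runx1-het and 16.0 in Flt3-ITD/Runx1-het, inside Kit (chr5:75640459-75641086), the receptor of stem cell factor, with 15.3 and 21.5, inside Meis1, a homeobox gene, with 15.6 and 10.5, and 60227 bp from Mecom, a zinc-finger gene of stem cells, with 8.95 and 15.7. All were weak within their lists, at the 1.77th to 19.4th percentile. Each of these genes was the nearest gene of many other union regions too. Kit was nearest to 19 union regions, of which 5 were open in all 8 lists, 12 in Runx1-het, 11 in Flt3-ITD/Runx1-het and 8 and 13 in the first-set and second-set wildtype lists. Mecom was nearest to 58, and its region was the farthest of the 629 from any peak of the other lists, at 55628 bp. The list of HOX, MEIS and PBX genes had 2 of 160 regions (1.25%), at Meis1 and inside Pbx4 (11.2 and 12.1).

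Lymphoid genes supplied 6 regions. The B-cell list had 3 of 220 (1.36%), among them one inside Pax5 (chr4:44685407-44685784), the factor that fixes B-cell identity, with 17.1 in Runx1-het and 20.5 in Flt3-ITD/Runx1-het and one 75253 bp from Bach2, a repressor in lymphocytes (10.2 and 9.16). The lymphoid priming list had 2 of 450 (0.444%), inside Mef2c (chr13:83601795-83602068), with 20.7 and 26.3, and inside Bcl11a, with 12.9 and 18.4, both transcription factors needed for B-cell development. At Bcl11a the summits of the 2 lists were 320 bp apart and their peaks shared 37.4% of the region. The nearest peak of another list was 211 bp from it. The T and NK cell list had 1 of 197 (0.508%), near Cd4 (8.46 and 12.1).

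Myeloid and dendritic genes supplied 4. The highest was inside Irf8 (chr8:120743936-120744288), the interferon regulatory factor that directs monocyte and dendritic cell fate, with 34.6 in Runx1-het and 22.4 in Flt3-ITD/Runx1-het. Irf8 was nearest to 28 union regions, of which 6 were in all 8 lists, 19 in Runx1-het and 20 in Flt3-ITD/Runx1-het, against 15 in Flt3-ITD and 13 in wildtype of the first set, and, in the second set, 14 in NUP98-HOXD13, 17 in its double mutant with Flt3-ITD, 8 in Flt3-ITD and 18 in wildtype. Csf2ra, a subunit of the GM-CSF receptor, had 10.4 and 12.1, and with Irf8 made 2 of 191 regions of the granulocyte-monocyte list (1.05%). The dendritic cell list had 3 of 219 (1.37%), at Irf8, Runx2 and Tcf4, a factor of plasmacytoid dendritic cells (17.9 and 20.5).

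Runx2, a paralogue of Runx1, was also the 1 gene of the RUNX and CBF list with a region, 1 of 224 (0.446%), at chr17:44459032-44459542, 36445 bp from the gene, with 20.7 in Runx1-het and 27.0 in Flt3-ITD/Runx1-het. STAT5 targets had 2 of 227 (0.881%), near Socs1, a feedback inhibitor of cytokine signalling (18.9 and 20.8), and inside Bcl2, a survival gene (14.5 and 25.7). A peak of another list lay 129 bp from the Bcl2 region. The mast, basophil and eosinophil list had 2 of 129 (1.55%), at Kit and inside Il1rl1, the IL-33 receptor (12.8 and 18.5). The megakaryocyte-platelet list had 1 of 239 (0.418%), inside Selp, the platelet adhesion protein P-selectin (14.9 and 10.2), and stroma and endothelium 1 of 179 (0.559%), near Cxcl12.

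The erythroid list had 0 of 94 regions, which allows a share of up to 3.19%. The housekeeping list had 0 of 85 (up to 3.53%) and the list of ribosome biogenesis and p53 genes 0 of 100 (up to 3.0%). These limits are 3 over the number of regions and cover counting error only. Over all 16 lists, 21 of the 629 regions (3.34%) were nearest to a list gene, against 2.33% of union regions, and they were 21 of the 2768 regions near list genes (0.759%). With 0 to 4 regions per list, beside 0.529% of all union regions, no list was read as standing apart.

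At Runx1 itself (chr16:92601466-92826074), 40 union regions lay in the gene or within 100 kb, and none was among the 629. The share over all union regions was 0.529%, so 40 regions are too few to read an absence from. The nearest of the 629 was 1514502 bp from Runx1, inside 4932438H23Rik. Chromosome 16 held 24 of the 629 (0.556% of its union regions), in a range over chromosomes of 0.347% on 12 to 0.659% on 13. Near Flt3 (chr5:147330741-147400489), 1 of 33 regions was among them, also too few to set against the share over all union regions. It lay inside Cdx2, a homeobox gene, at chr5:147304936-147305180, which is 25561 bp from Flt3, with 10.1 in Runx1-het and 13.3 in Flt3-ITD/Runx1-het.

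The regions usually had open chromatin of the other genotypes in the neighbourhood. The nearest peak of any of the other 6 lists was a median of 3398 bp away, within 500 bp for 70 regions (11.1%, 8.90 to 13.8) and beyond 10 kb for 105 (16.7%). For the regions held only by Flt3-ITD/Runx1-het and Flt3-ITD the median was 4080 bp, with 9.72% within 500 bp and 23.8% beyond 10 kb, and for the NUP98-HOXD13 pair it was 4786 bp, with 10.6% and 29.7%. Each pair was measured against its own other 6 lists, which differ in length, and no distance over all union regions is given. Single lists had a peak within 500 bp of 34 (second-set Flt3-ITD, the shortest list) to 52 (second-set wildtype, the longest) of the 629. The median distance to a region open in all 8 lists was 8066 bp.

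**Figure D5:**
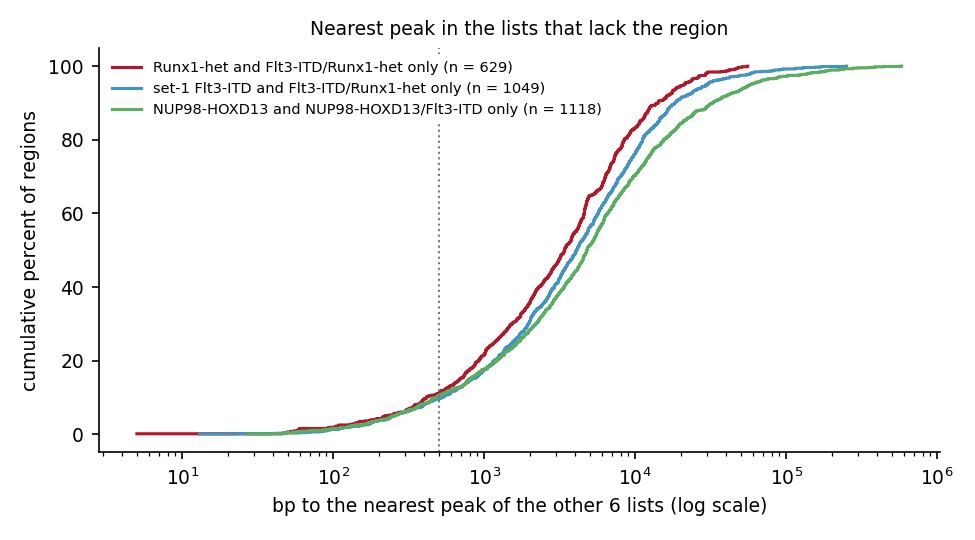
Lines give the cumulative percent of regions by the distance (bp, log scale) to the nearest peak of the 6 lists that lack the region, for the 629 regions (red), the first-set Flt3-ITD pair (blue) and the NUP98-HOXD13 pair (green), and the dotted line marks 500 bp. The red line reaches 50% at 3398 bp and 16.7% of it lies beyond 10 kb, against 23.8% for the blue and 29.7% for the green.

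The edge of the rule was close. The weakest regions inside it lay in Pde1a (−log10 p of 9.0 in Runx1-het and 3.86 in Flt3-ITD/Runx1-het), near Gm6569 (4.67 and 15.2) and near Adtrp (19.8 and 5.12). Just outside were regions with a peak in both lists and a weak one in exactly 1 more. A region in Ptpn11, the SHP2 phosphatase of receptor signalling (chr5:121184850-121185357), had 13.6 and 7.97 with a NUP98-HOXD13 peak of 3.61. One 920 bp from Aplnr had 27.0 and 33.1 with a second-set Flt3-ITD peak of 4.57, and one in Etv6, an ETS repressor gene, had 10.2 and 49.1 with a NUP98-HOXD13 peak of 5.29. In all, 1349 regions had both peaks and 1 more, the third list being first-set Flt3-ITD for 390, second-set wildtype for 344, NUP98-HOXD13/Flt3-ITD for 186, first-set wildtype for 185, NUP98-HOXD13 for 179 and second-set Flt3-ITD for 65.

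Membership changed where the lists were cut to equal numbers of peaks. Such a cut drops weak peaks by construction, and an effect of list length by itself was not tested. With every list limited to its 81961 peaks of highest −log10 p, the number in the shortest list, 296 regions were held only by the Runx1-het pair, and 53 of the original 629 (8.43%) were among them. All 576 that dropped out had fallen below the limit in Runx1-het or Flt3-ITD/Runx1-het, 352 of them in both, and 243 of the 296 were not among the 629. The 53 included all 12 leading regions within 100 kb of a gene, the 3 at Cdyl, Mn1 and Rbms1, Hivep2, and, of the 21 near list genes, those of Irf8, Mef2c, Runx2, Ifit3 and Cxcl12. That they stayed was fixed in advance. The limit was set on the same −log10 p (19.76 in Runx1-het and 19.36 in Flt3-ITD/Runx1-het), and these regions lay above it in both lists. On these equal numbers, 6 pairs of lists had more regions of their own than the Runx1-het pair. The NUP98-HOXD13 pair held 1139 and the first-set Flt3-ITD pair 815, while Runx1-het with second-set wildtype held 290.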

How the data were processed

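Open chromatin was profiled by ATAC-seq in 16 samples, grouped by their titles and genotypes. Bowtie2 and MACS2 and the builds mm10 and GRCm38 are named in the submitters' processing notes. The sources used here give no versions, thresholds, read shifting or duplicate removal. Each group has 1 pooled peak list, named for both of its samples per the labels. The authors deposited, per peak, a fold enrichment (a ratio), a −log10 p, a −log10 q, a score from 413 to 1000 of unstated meaning and the summit's offset.

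Peaks on chromosomes 1 to 19 were merged over the 8 lists at 1 bp overlap, and a region's value in a list was that of its best peak. Genes were protein-coding RefSeq spans of GRCm38.p6, without strand. Starts and promoter windows came from RefSeq, with none for chromosome 18. Named regions followed a rule: the 12 highest by lower −log10 p with a gene within 100 kb, 1 per gene, the 5 by lower fold, the 5 widest, up to 4 per gene list, the 5 strongest at starts, the 3 nearest each side of the rule, and Runx1 and Flt3. The members and the 16 gene lists were chosen with earlier results of these data known. No genome was used, so the planned motif search under peaks was replaced by one in promoter windows. Shares have Wilson 95% intervals. Python 3.11.15, pandas 2.3.3 and scipy 1.17.1 were used, and the code was tested on simulated lists. Alternatives were equal list lengths, a stricter q, other overlap rules, the first set alone and other gene spans. The region of 1 list gene is counted but not reported here.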

Additional observations from a re-analysis of the deposited data

How the results depend on the processing

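Of 47 values recomputed under other settings, 30 stayed within 1.5 times the count or within the 95% interval and 17 moved. With equal numbers of peaks, the count was 296, the median width 409.5 bp, the median fold 7.22 in Runx1-het and 8.28 in Flt3-ITD/Runx1-het, the median −log10 p 24.5 and 25.7, and 7.43% lay within 500 bp of another list's peak. Missing from the first-set lists only, the count was 2836, the width 458 bp, the fold 5.67 and 6.39, the −log10 p 17.8 and 18.9, and 76 regions were near list genes. The share within 500 bp was 19.3% where peaks had to cover 50% of a region and 6.81% where peaks within 200 bp were merged. With spans of all genes, 62.5% overlapped one. The count was 642 at a −log10 q of 5 or more, 663 under the cover rule, 602 with merging and 697 without the second-set Flt3-ITD list, a setting added after seeing the data. Of the 629 regions, 97.5%, 95.4%, 95.4% and 100% were found again under these. The cause was not tested, except that equal numbers drop weak peaks by construction.

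No paired analysis was possible because each group has 1 pooled list and no value per sample. Leaving out a replicate was impossible for the same reason. The motif window around summits was not run, since no genome was used here. Read depth is unknown and limits every absence.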
